A study of Arabidopsis thaliana with 14 samples.

Results

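The beta-expansins and expansin-like genes described here are EXPB1 (AT2G20750), EXPB3 (AT4G28250), EXLA1 (AT3G45970), EXLA2 (AT4G38400), EXLA3 (AT3G45960) and EXLB1 (AT4G17030). They were taken by locus identifier, and are 6 of the 34218 genes counted. Transcripts were counted by RNA sequencing of Arabidopsis thaliana rosette leaves from the ft-10 line, so that every group carries this mutant allele of the flowering gene FT and none serves as its wild type. Plants were 30 days old, grown in soil at 22 °C with 16 h of light and 8 h of dark. The 14 libraries formed 5 groups, namely leaves with no injection at 0 h (n = 3), leaves injected with silk microneedles that carried 15 mM of the gibberellin GA3 and taken at 3 h (n = 3), 24 h (n = 3) or 168 h (n = 2), and leaves injected with empty silk microneedles and taken at 24 h (mock, n = 3). The needles were removed before the leaves were frozen. The labels do not say how many leaves or plants made up a library, or at which hour of the day leaves were taken. No empty needle was taken at 3 h or 168 h, so GA3, injection and time cannot be told apart in comparisons with 0 h. Between times after GA3, an effect of GA3 cannot be told apart from those of time since injection, leaf age or hour of the day.

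Expansins are small secreted proteins that loosen the plant cell wall at acidic pH without cutting its polymers, which lets a growing cell extend under its own turgor. Alpha-expansins act mainly on the cellulose and xyloglucan network, and beta-expansins, the family that includes the group 1 grass pollen allergens, are best known for their action on grass walls rich in arabinoxylan. The expansin-like A (EXLA) and expansin-like B (EXLB) proteins have the same pair of domains but have not been shown to loosen walls. Gibberellin promotes leaf and stem growth by removing DELLA repressor proteins, and expansin transcripts are among those that rise in many growing tissues.

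EXLA3 and EXLA1 lie in tandem on the plus strand of chromosome 3, at 16892702 to 16894153 and 16896166 to 16897308 in TAIR10.1, with 2012 bases between them. The end of EXLA1 overlaps the histone gene HTB9 on the other strand by 22 bases. EXLA2 (chromosome 4, 17978422 to 17979740), EXPB3 (chromosome 4, 13999625 to 14002124) and EXLB1 (chromosome 4, 9581562 to 9583290) are on the minus strand, and EXPB1 (chromosome 2, 8940833 to 8942706) is on the plus strand. The 3 EXLA genes have 3 exons each and the other 3 genes have 4 exons each. Coding sequences were 86.6% identical between EXLA1 and EXLA3, 85% between EXLA1 and EXLA2, 83% between EXLA2 and EXLA3 and 78.4% between EXPB1 and EXPB3, while every other pair lay between 55.4% and 59.2%. The longest run shared by 2 coding sequences belonged to the tandem pair and had 57 bases. It is shown because a read that lies wholly within it matches both genes:
EXLA1 and EXLA3 shared coding run: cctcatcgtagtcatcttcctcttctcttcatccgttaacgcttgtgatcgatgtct

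The 250 bases before the annotated start are shown for EXPB1, the gene with most of the test calls below, and for the tandem pair, where the searched motifs were found (RefSeq sequence, TAIR10.1, read 5′ to 3′ on the gene's strand). The windows are chr2:8940583-8940832 for EXPB1, chr3:16895916-16896165 for EXLA1 and chr3:16892452-16892701 for EXLA3. Capitals mark matches, on either strand, to the G-box (CACGTG), the gibberellin-response word GARE (TAACAAA), the W-box bound by WRKY factors (TTGACC or TTGACT), the short evening element (AATATCT) and the rapid stress response element RSRE (CGCGTT). The RSRE was added to the search after the windows had been read.
EXPB1 upstream window: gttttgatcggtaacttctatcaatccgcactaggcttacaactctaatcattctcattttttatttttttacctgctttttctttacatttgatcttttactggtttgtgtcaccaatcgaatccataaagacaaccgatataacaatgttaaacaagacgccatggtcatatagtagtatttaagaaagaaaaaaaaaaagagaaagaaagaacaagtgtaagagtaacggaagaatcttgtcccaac
EXLA1 upstream window: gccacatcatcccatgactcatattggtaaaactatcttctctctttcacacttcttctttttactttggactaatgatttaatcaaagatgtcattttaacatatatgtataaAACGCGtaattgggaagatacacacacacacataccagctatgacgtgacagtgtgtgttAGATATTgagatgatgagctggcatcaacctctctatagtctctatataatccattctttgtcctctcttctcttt
EXLA3 upstream window: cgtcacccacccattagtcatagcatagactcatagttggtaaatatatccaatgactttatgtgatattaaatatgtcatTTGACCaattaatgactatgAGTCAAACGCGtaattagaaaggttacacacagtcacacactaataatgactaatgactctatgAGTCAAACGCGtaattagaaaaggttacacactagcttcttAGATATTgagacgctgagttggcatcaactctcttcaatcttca
Of the 6 windows, those of EXLA1 and EXLA3 each held the short evening element (at -76 and -44 from the start) and the RSRE (at -136 in EXLA1, and at -144 and -80 in EXLA3). EXLA3 alone held W-boxes, at -169, -149 and -85, and each of its RSRE matches shares 1 base with a W-box. The EXLA3 window also held 1 stretch of 26 bases in 2 copies, from -154 and from -90, shown because it carries both overlapping matches:
EXLA3 upstream repeat: ctatgAGTCAAACGCGtaattagaaa
Among 27561 windows of this length before annotated genes, 9.99% held the short evening element, 2.58% the RSRE, 28.4% a W-box, 16.1% the GARE and 6.46% the G-box. No searched word was found in the windows of EXPB1, EXPB3, EXLA2 or EXLB1. The short evening elements lie in a run of 13 bases that the EXLA1 and EXLA3 windows share, from -78 and -46. Since the RSRE was chosen after these windows were read, its share over all windows does not test its presence here. The matches describe the sequence alone.

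Total reads per library ranged from 20448913 to 26537437, and 88.8% to 95.8% of them were counted in genes. The lowest share was that of GA3 3 h replicate 3. In that library 4.65% of reads matched several places and 3.2% were unmapped, beside medians of 1.09% and 1.99% over the libraries. The part of this in the 3 h values was not tested. Levels are given in CPM (counts as a share of the library, scaled by the trimmed mean of M-values method, TMM), for replicates 1, 2 and 3 in that order. Log2 fold changes are fitted values ± SE, with p-values from the quasi-likelihood test of edgeR adjusted by the Benjamini-Hochberg method over 20077 tested genes. All 6 genes were tested, and a gene is said to have risen or fallen where the adjusted p was under 0.05. Mesophyll marker genes (4 of 4 detected) summed to 34363 to 40512 CPM in untreated leaves, 20816 to 33180 at 3 h, 27976 to 43923 at 24 h of GA3, 20890 to 30422 with mock and 7214 to 10516 at 168 h, and CA1, a chloroplast carbonic anhydrase, stood at 276 and 20 CPM at 168 h against 3222 to 3764 in untreated leaves. Vascular markers (5 of 5) spanned 246 to 480 CPM, epidermis markers (5 of 5) 452 to 1339 CPM and guard cell markers (4 of 4) 33.5 to 141 CPM, sums in which abundant genes outweigh the rest. Tested singly at 168 h against untreated leaves, 4 of 4 mesophyll markers fell, 3 of 5 epidermis markers fell (ATML1, -1.84, FDH, -1.77, and PDF2, -0.77) and 3 of 5 vascular markers fell (XCP1, -2.92, IRX3, -1.28, and ATHB8, -1.10). Of the guard cell markers KAT1 rose (2.51, at 51.3 and 125 CPM), HT1 fell (-1.38), and FAMA (-0.59) and EPF1 (-0.45) did not pass. At 24 h of GA3 against untreated leaves the epidermis markers ATML1 (-0.82) and CER6 (-1.58) fell, and no other marker of these 4 lists passed. With mock against untreated leaves ATML1 alone fell (-1.13). At 3 h against untreated leaves ATML1 (-1.36), FDH (-0.97) and the vascular marker SUC2 (-0.70) fell. All 4 root hair markers and the shoot meristem genes WUS and CLV3 were at 0 in every library. The shoot meristem gene STM stood at 0.177 CPM in untreated replicate 1, at 0.132 CPM in GA3 3 h replicate 1 and at 0 elsewhere. The 3 floral organ markers summed to at most 0.849 CPM.

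Per kilobase of exon, the mean level over the 14 libraries was highest for EXLA1, at 92.5 ± 88.8 CPM per kb (SD, n = 14 libraries of all groups). EXLA2 followed at 20.5 ± 20.2, EXLB1 at 16.2 ± 9.49, EXPB3 at 11.6 ± 5.87, EXPB1 at 1.62 ± 2.26 and EXLA3 at 1.5 ± 1.45 CPM per kb. Of the neighbours in this order, only EXPB3 and EXPB1 were further apart than the SD of both. EXLA1 was the second most abundant of the 35 expansin family genes counted on this scale, behind the alpha-expansin EXPA1 at 148 CPM per kb. The order of the middle 3 genes depended on the length used, since per kilobase of coding sequence EXPB3 stood at 30.4, EXLA2 at 28.9 and EXLB1 at 24 CPM per kb. EXLA1 had the highest level per kb of the 6 in 9 libraries, EXPB3 in 3 and EXLB1 in 2. The summed level of the 6 genes ran from 21.6 CPM per kb in the first 168 h library to 347 CPM per kb in GA3 24 h replicate 3, and the share of EXLA1 in that sum from 6.35% in the first 3 h library to 78.2% in the first untreated library. EXLB1 gave 41.5% and 54.3% of the sum in the 168 h libraries, and EXPB3 gave 42.3% and 0.703% in the same libraries.

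**Figure D1:**
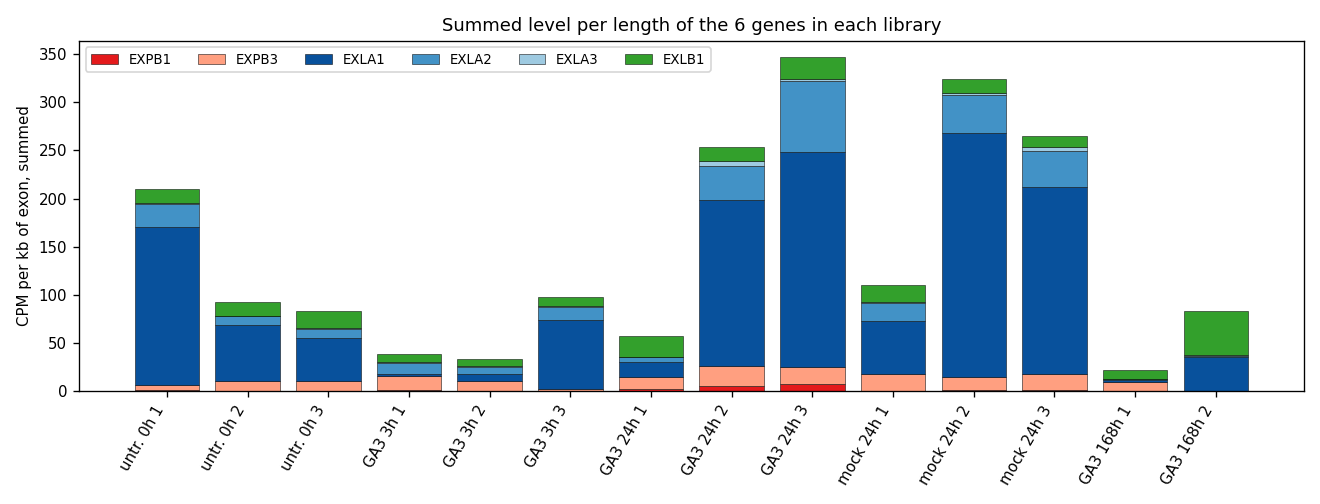
Level per length of the 6 genes in each library, stacked, in TMM-scaled CPM per kb of exon on a linear axis that starts at 0; each bar is 1 library and each colour 1 gene. EXLA1 forms the largest segment in 9 of the 14 libraries, and bars of 1 group differ in height, as in GA3 24 h, where they reach 57.3, 254 and 347 CPM per kb.

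EXPB1, a beta-expansin of low abundance, had its highest levels at 24 h of GA3. It stood at 1.46, 0.399 and 0.955 CPM in untreated leaves, at 1.68, 0.829 and 0.0822 CPM at 3 h of GA3, and at 3.3, 8.29 and 12 CPM at 24 h of GA3. With mock at 24 h the libraries stood at 1.24, 1.88 and 2.39 CPM, and at 168 h of GA3 at 0.126 and 0.0434 CPM. All 3 GA3 24 h libraries were above every other library, mock included, whereas the untreated, 3 h and mock libraries overlapped each other, and both 168 h libraries were below every untreated one.

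**Figure D2:**
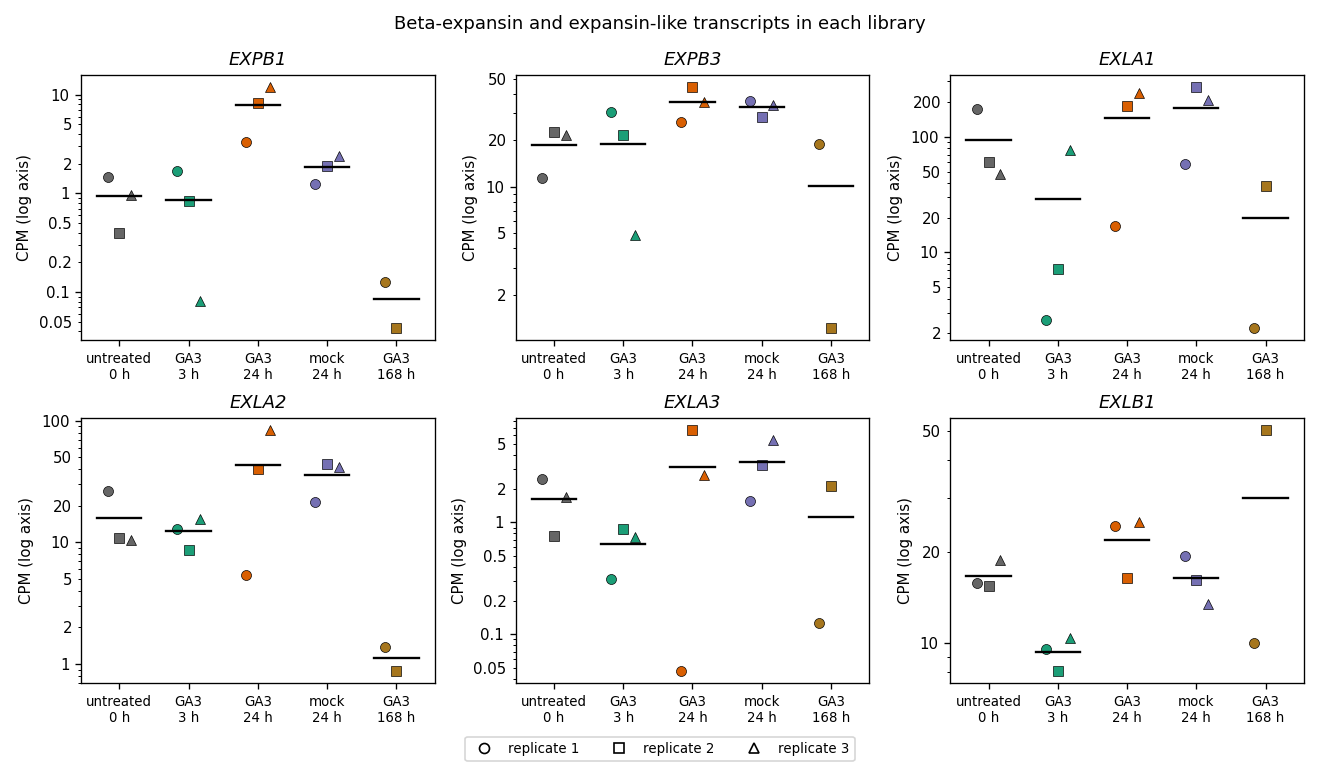
Level of each gene in every library, in TMM-scaled CPM on a log axis with its own range per gene; each point is 1 library, its shape gives the replicate number, and the black bar is the group mean. EXPB1 at 24 h of GA3 (3.3 to 12 CPM) lies above all of its other libraries, EXLA2 at 168 h (0.869 and 1.39 CPM) below all of its others, and the EXLA1 libraries of 1 group are up to 29.3-fold apart.

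EXPB1 rose at 24 h of GA3 relative to untreated leaves, from a mean of 0.938 ± 0.531 (SD, n = 3) to 7.86 ± 4.36 CPM (SD, n = 3). The log2 fold change was 3.06 ± 0.79 (adjusted p = 0.0475, edgeR), a fitted 8.33-fold difference. It ended as a call when any 1 of the 6 libraries was left out, with values of 2.62 to 3.54 and adjusted p of 0.0507 to 0.161 (edgeR), and also with total counts alone as library size (2.96, 0.0564) and with the 2 groups fitted alone (3.05, 0.0705). The epidermis markers ATML1 and CER6 were lower in the same comparison. ATML1 was also lower with mock (-1.13) and at 3 h of GA3 (-1.36) against untreated leaves. CER6 did not pass there (-0.99 and -0.96, adjusted p = 0.145 and 0.0566, edgeR). The part of these markers in the result was not tested. At 3 h of GA3 against untreated leaves EXPB1 was not called (-0.13, adjusted p = 0.936, edgeR). Relative to 3 h of GA3, where the mean was 0.863 ± 0.798 CPM (SD, n = 3), EXPB1 rose by 3.19 ± 0.79 on the log2 scale (adjusted p = 0.0265, edgeR). That call ended without the second 3 h library (adjusted p = 0.0861, edgeR) and without GA3 24 h replicate 2 (0.0753) or replicate 3 (0.0759), and with the 2 groups fitted alone (3.20, 0.085), while the value became 4.14 without the first 3 h library.

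At matched time, EXPB1 stood at 7.86 ± 4.36 CPM with GA3 against 1.83 ± 0.576 CPM with mock (SD, n = 3 each). The log2 fold change was 2.09 ± 0.75, with a 95% interval of 0.45 to 3.73, an unadjusted p of 0.0166 and an adjusted p of 0.75 by edgeR over all genes. The libraries did not overlap (3 of 3 higher), but the difference did not pass the test, and in this comparison no gene of the 20077 did. EXPB1 with mock against untreated leaves had a value of 0.97 ± 0.77 (adjusted p = 0.578, edgeR), with overlapping libraries.

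At 168 h EXPB1 was counted 3 times in 1 library and 1 time in the other, 4 counts in all, against 60 in the untreated and 479 in the GA3 24 h libraries. The ratio of untreated to 168 h levels was 10.9 (95% counting interval 4.06 to 41.5), and of GA3 24 h to 168 h levels 91.1 (35.3 to 336), intervals that cover counting error only. EXPB1 fell by both tests, with log2 fold changes of -3.37 ± 1.17 relative to untreated leaves (adjusted p = 0.0453, edgeR) and -6.43 ± 1.20 relative to 24 h of GA3 (adjusted p = 0.0043, edgeR). The fall from untreated leaves ended as a call without untreated replicate 1 (adjusted p = 0.0973, edgeR) or replicate 3 (0.0792) and without the first (-4.26, 0.111) or second (-2.88, 0.221) 168 h library. It ended too with total counts alone (-3.21, adjusted p = 0.0531, edgeR) and with the 2 groups alone (-3.37, 0.0536). The fall from 24 h ended as a call without the second 168 h library (-5.94, adjusted p = 0.0597, edgeR) and was -7.32 without the first. In these bulk samples, fewer cells of a type and less RNA per cell cannot be told apart, and all 4 mesophyll markers, 3 of 5 epidermis markers and 3 of 5 vascular markers were lower at 168 h than in untreated leaves too. Their part in the result was not tested.

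EXPB3, the more abundant beta-expansin of the pair, passed the test in none of the 7 comparisons. It stood at 11.4, 22.6 and 21.8 CPM in untreated leaves, at 30.6, 21.7 and 4.89 CPM at 3 h and at 26.4, 44.5 and 35.7 CPM at 24 h of GA3. Mock libraries stood at 36, 28.5 and 34.2 CPM, and the 168 h libraries at 19.1 and 1.22 CPM. Both 24 h groups lay above all untreated libraries, with means of 35.5 ± 9.07 (GA3) and 32.9 ± 3.93 CPM (mock) against 18.6 ± 6.27 CPM (SD, n = 3 each). The log2 fold changes from untreated leaves were 0.93 ± 0.75 with GA3 and 0.82 ± 0.75 with mock (adjusted p = 0.5 and 0.633, edgeR), and GA3 against mock gave 0.11 ± 0.74 with a 95% interval of -1.50 to 1.72. Replicate 3 at 3 h and replicate 2 at 168 h were the low ones, and EXPB1 too was lowest of its group in both. Without the first 168 h library EXPB3 would be called lower at 168 h, at -3.94 relative to untreated leaves (adjusted p = 0.0168, edgeR) and -4.87 relative to 24 h of GA3 (0.011), so the 168 h value rests on which library is kept. With both, the values were -0.87 ± 0.86 and -1.81 ± 0.89.

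EXLA1, the expansin-like gene with the highest level, varied widely between libraries of 1 group and passed the test in none of the comparisons. It stood at 174, 60.9 and 47.4 CPM in untreated leaves, at 2.6, 7.22 and 76.2 CPM at 3 h and at 17, 183 and 238 CPM at 24 h of GA3. Mock libraries stood at 58.1, 269 and 206 CPM, and the 168 h libraries at 2.23 and 37.2 CPM. The highest library was 29.3-fold above the lowest at 3 h, 14-fold at 24 h of GA3, 16.7-fold at 168 h, 4.63-fold with mock and 3.68-fold in untreated leaves. Both 168 h libraries were below all untreated ones, and the groups of every other comparison overlapped. The difference at 3 h was -1.71 ± 1.29 and at 168 h -2.26 ± 1.53 relative to untreated leaves (adjusted p = 0.407 and 0.281, edgeR), and at 24 h of GA3 against 3 h it was 2.35 ± 1.31 (adjusted p = 0.264). The third 3 h library had the lowest share of reads counted in genes. Without it the differences became -4.26 at 3 h (adjusted p = 0.0698, edgeR) and 4.91 between the times (0.0648). The other libraries left out gave -2.03 to -0.95 at 3 h and 1.80 to 2.87 between the times. At 168 h the value was -1.34 without the first 168 h library, -5.44 (adjusted p = 0.145, edgeR) without the second and -1.47 without the first untreated library. GA3 against mock gave -0.28 ± 1.25, with a 95% interval of -3.0 to 2.44 that holds differences of several fold in either direction.

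EXLA2, whose loss in Arabidopsis is known to increase resistance to the grey mould Botrytis, had its lowest levels at 168 h. It stood at 26.5, 10.9 and 10.4 CPM in untreated leaves, at 13, 8.59 and 15.5 CPM at 3 h and at 5.39, 39.8 and 83.5 CPM at 24 h of GA3. Mock libraries stood at 21.4, 44.1 and 42 CPM, and the 168 h libraries at 1.39 and 0.869 CPM. Every library of the other groups was above both 168 h libraries, and the GA3 24 h libraries were up to 15.5-fold apart.

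EXLA2 fell at 168 h, to 1.13 ± 0.367 CPM (SD, n = 2) from 15.9 ± 9.14 CPM in untreated leaves and 42.9 ± 39.1 CPM at 24 h of GA3 (SD, n = 3 each). The log2 fold changes were -3.81 ± 0.97 (a fitted 14-fold difference, adjusted p = 0.0126, edgeR) and -5.24 ± 1.03 (37.8-fold, adjusted p = 0.00517). The first ended as a call without the first (-4.19, adjusted p = 0.054, edgeR) or second (-3.56, 0.103) 168 h library, and the second ended without the second 168 h library (-5.0, 0.0684) or with the 2 groups alone (-5.27, 0.0549) and was -4.31 without GA3 24 h replicate 3. The same mesophyll, epidermis and vascular markers were lower at 168 h than in untreated leaves as well, and their part in this result was not tested. Between 3 h and 24 h of GA3 EXLA2 had a value of 1.79 ± 0.72 (adjusted p = 0.125, edgeR), which passed with DESeq2 (0.0431) and without the first GA3 24 h library (2.32, 0.016). GA3 against mock gave 0.26 ± 0.69, with a 95% interval of -1.25 to 1.77.

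EXLA3, the upstream member of the tandem pair, was counted at low levels and passed the test in none of the comparisons. It stood at 2.43, 0.754 and 1.7 CPM in untreated leaves, at 0.309, 0.878 and 0.739 CPM at 3 h and at 0.0465, 6.66 and 2.64 CPM at 24 h of GA3. Mock libraries stood at 1.56, 3.28 and 5.49 CPM, and the 168 h libraries at 0.126 and 2.13 CPM. The first GA3 24 h library rested on 1 count and the second on 127, the widest spread within a group among the 6 genes (143-fold), and groups overlapped in every comparison. The group means were 3.12 ± 3.33 CPM with GA3 and 3.44 ± 1.97 CPM with mock at 24 h (SD, n = 3 each), with a log2 fold change of -0.15 ± 1.08 and a 95% interval of -2.50 to 2.19. EXLA3 totalled 594 counts over the 14 libraries against 28656 for EXLA1, and reads that match both copies can make its single values uncertain.

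EXLB1, the single expansin-like B gene, had the smallest spread of the 6 genes in untreated leaves and at 3 h and 24 h of GA3, where its libraries were 1.22-fold, 1.29-fold and 1.53-fold apart. It stood at 15.7, 15.4 and 18.8 CPM in untreated leaves, at 9.53, 8.05 and 10.4 CPM at 3 h and at 24.3, 16.4 and 25 CPM at 24 h of GA3. Mock libraries stood at 19.4, 16.1 and 13.4 CPM, and the 168 h libraries at 10 and 50.2 CPM. The 3 h libraries were below all untreated, GA3 24 h and mock libraries, and only the first 168 h library lay in the 3 h range. At 3 h the difference from untreated leaves was -0.84 ± 0.42, with 3 of 3 libraries lower (adjusted p = 0.211, edgeR, and 0.0364 with these 2 groups fitted alone). From 3 h to 24 h of GA3 it was 1.23 ± 0.43, with 3 of 3 higher (adjusted p = 0.0822, edgeR, 0.0303 with DESeq2 and 0.0293 with the 2 groups alone). At 168 h the 2 libraries went opposite ways from untreated leaves, with 0.85 ± 0.46 for both, 1.59 without the first (adjusted p = 0.00371, edgeR) and -0.78 without the second (adjusted p = 0.11). Relative to 24 h of GA3 the values were 0.46 ± 0.46, 1.19 (adjusted p = 0.0142, edgeR) and -1.17 (0.0554) in the same order.

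In order of group means, EXPB1, EXPB3 and EXLA2 were highest at 24 h of GA3, EXLA1 and EXLA3 with mock, and EXLB1 at 168 h. Neighbouring groups in that order had separate libraries in 3 places, between GA3 24 h and mock for EXPB1, between 3 h and 168 h of GA3 for EXLA2, and between mock and 3 h for EXLB1. All other neighbours overlapped. In both 24 h groups replicate 1 was the lowest library for EXPB1, EXLA1, EXLA2 and EXLA3, and in the 168 h group replicate 2 was the higher one for EXLA1, EXLA3 and EXLB1 and the lower one for EXPB1, EXPB3 and EXLA2.

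Counted over the 6 genes, GA3 against mock at 24 h gave 0 calls with edgeR and 0 with DESeq2 (1 of 6 at an unadjusted p under 0.05), where 0% of all tested genes were called by edgeR and 1322 had an unadjusted p under 0.05. The groups did not overlap for 1 gene (EXPB1), against 13.9% of all genes. Mock against untreated leaves gave 0 calls with edgeR and with DESeq2 (0 of 6 at an unadjusted p under 0.05; 0.777% of all genes called), and no overlap for 1 gene (EXPB3; 24.9% of all genes). The median log2 fold change of the 6 genes was 0.18 for GA3 against mock and 0.94 for mock against untreated leaves, beside -0.00 over all genes in both.

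At 3 h against untreated leaves 0 of 6 genes were called by edgeR or DESeq2 (0 at an unadjusted p under 0.05), where 14.2% of all genes were called, and 1 gene did not overlap (EXLB1; 32.9% of all genes). At 24 h of GA3 against untreated leaves 1 was called (EXPB1, higher), beside 4.93% of all genes called and 2.92% called higher. The groups did not overlap for 2 (EXPB1 and EXPB3), against 27.9% of all genes. Between 24 h and 3 h of GA3 1 was called (EXPB1, higher), beside 11.4% of all genes called and 5.68% called higher. There 2 did not overlap (EXPB1 and EXLB1), against 31.8% of all genes. The fitted values at 24 h of GA3 lay above 0 for 6 of 6 genes in both comparisons, beside 10330 and 9651 of all 20077 genes. Their medians were 0.93 and 2.03 beside 0.02 and -0.03 over all genes, but 5 of the 6 did not pass in each. With mock against untreated leaves 5 of 6 values lay above 0, beside 9940 over all genes. These comparisons share the GA3 24 h or the untreated libraries and are not independent of each other.

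At 168 h 2 of the 6 genes were called relative to untreated leaves (EXPB1 and EXLA2, both lower), close to the 31.2% called among all genes in either direction. Of all genes 16.1% were called lower. In the same comparison 3 of the 6 did not overlap (EXPB1, EXLA1 and EXLA2, all lower), against 56.3% of all genes. Relative to 24 h of GA3, 2 were called (EXPB1 and EXLA2, both lower), beside 24.2% of all genes called and 13.9% called lower. There 3 did not overlap (EXPB1, EXPB3 and EXLA2, all lower), against 54.5% of all genes. The medians were -1.56 and -2.35, beside 0.01 and 0.04 over all genes. Fits without the first or the second 168 h library rest on a lone library at that time. Relative to untreated leaves they gave -4.26 and -2.88 for EXPB1 and 1.59 and -0.78 for EXLB1, in that order. EXPB3 was at -3.94 without the first.

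**Figure D3:**
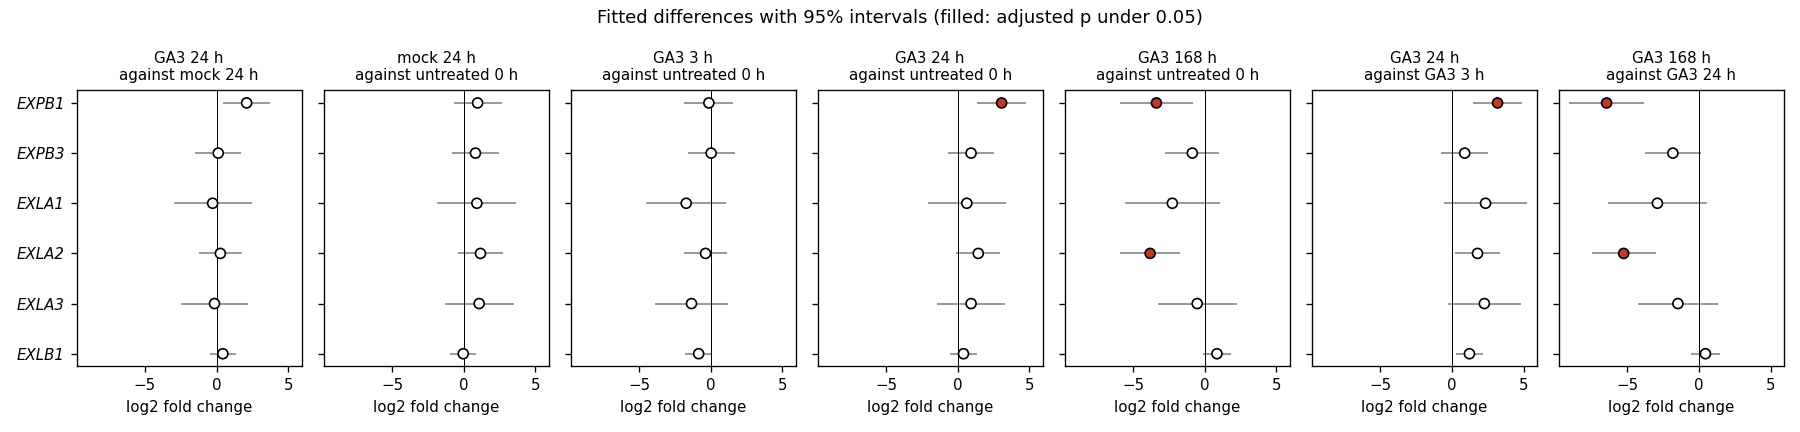
Fitted log2 fold changes (points) with 95% intervals (bars) of the 6 genes in the 7 comparisons, on 1 shared linear axis; filled points passed an adjusted p of 0.05 (edgeR). EXPB1 holds 4 of the filled points and EXLA2 holds 2, and no point is filled for GA3 against mock or for mock or 3 h against untreated leaves.

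The remaining expansin family genes counted were 25 alpha-expansins and 4 beta-expansins. None of those beta-expansins was tested, as 3 of them had 0 counts in all libraries and EXPB2 had 5 counts. Of the alpha-expansins 15 were tested and 9 had 0 counts. At 3 h against untreated leaves 2 of 15 alpha-expansins rose, where 14.2% of all genes were called and 8.55% called higher. DESeq2 called 4 of the 15, and 1 was called without untreated replicate 2 or 3 or without replicate 1 at 3 h. Over all genes the main fit called 2848. The other settings, DESeq2 among them, called 1967 to 4254, and fits without 1 library called 1475 to 3025. EXPA3 stood at 77.3, 74.2 and 33.4 CPM at 3 h and 4.25, 8.65 and 10.4 CPM in untreated leaves (log2 fold change 2.99 ± 0.56, adjusted p = 0.00579, edgeR). EXPA10, which is known to promote leaf growth, stood at 139, 145 and 114 against 17.9, 44.1 and 25.8 CPM (2.18 ± 0.62, adjusted p = 0.0361), a call lost when any 1 of 5 of the 6 libraries was left out (adjusted p up to 0.115). All 3 libraries at 3 h were above the untreated libraries for both genes.

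At 24 h of GA3 against untreated leaves EXPA3 was the only alpha-expansin called, with 27.1, 41.8 and 35.5 CPM (2.16 ± 0.55, adjusted p = 0.0444, edgeR). Over all genes 4.93% were called and 2.92% called higher. The EXPA3 call was lost without any 1 of the 6 libraries (adjusted p up to 0.126, edgeR) and with the 2 groups alone (0.0574). GA3 against mock, mock against untreated leaves and 24 h against 3 h of GA3 gave 0 calls among the 15 with edgeR (1, 1 and 3 of 15 at an unadjusted p under 0.05, and 0, 0 and 2 called by DESeq2). Of the 20077 tested genes, 1322, 3254 and 5716 had an unadjusted p under 0.05 (edgeR) in the same order. At 168 h 10 of 15 fell relative to untreated leaves, where 16.1% of all genes were called lower. Among the 10 were EXPA13 (-1.35 ± 0.23, adjusted p = 0.00204, edgeR), EXPA5 (-2.25 ± 0.47, 0.00468) and EXPA11 (-3.04 ± 0.65, 0.00564, and -4.09 without the first 168 h library). Relative to 24 h of GA3 11 of 15 fell, where 13.9% of all genes were called lower. Without the second 168 h library these counts were 1 and 2, and EXPA5 (adjusted p = 0.0502, edgeR) and EXPA11 (0.0574) no longer passed. The second count was also 7 without the second GA3 24 h library and with the 2 groups alone. Calls over all genes changed too. With 1 library left out they spanned 2511 to 6342 relative to untreated leaves (6272 in the main fit). Relative to 24 h of GA3 they spanned 898 to 5325 (4856 in the main fit), and the 2 groups alone gave 2096. The median log2 fold change of the 15 at 168 h was -2.49 relative to untreated leaves, beside -1.56 for the 6 genes. Whether the families differ was not tested.

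**Figure D4:**
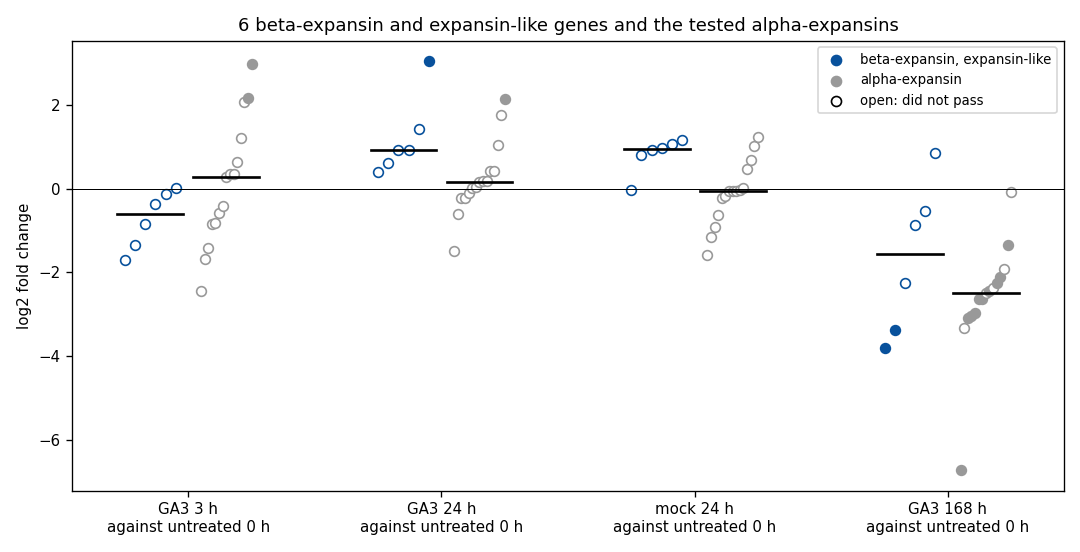
Fitted log2 fold changes of the 6 beta-expansin and expansin-like genes (blue) and of the 15 tested alpha-expansins (grey) relative to untreated leaves; each point is 1 gene, points are sorted within a group, filled points passed an adjusted p of 0.05 (edgeR), and bars are medians. The medians are -0.60 and 0.28 at 3 h, 0.93 and 0.16 at 24 h of GA3, 0.94 and -0.05 with mock, and -1.56 and -2.49 at 168 h.

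Profiles over the 14 libraries were compared by the root mean square difference of log2 CPM, each gene centred on its own mean, and the nearest 3 genes with a symbol are named for each. The comparison is a description of all 5 groups together, with no test, and a gene's own spread about its mean gives the scale. EXPB3 (own spread 1.32) was nearest to CDC45, a DNA replication factor (0.399), MAP65-5, a microtubule-bundling protein (0.472), and HMGB6, a chromatin protein (0.482). EXPB1 (own spread 1.86) was nearest to TBL36 (0.91), the mitotic cyclin CYCB2;4 (0.914) and the small GTPase gene ROP9 (0.928), at about the same distance from each.

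EXLA1 (own spread 2.23) was nearest to the wall-bound leucine-rich repeat extensin LRX3 (0.601), the xyloglucan endotransglucosylase XTR6, also named XTH23 (0.652), and EXL3 (0.86), an EXORDIUM-like gene that is no expansin. EXLA2 (own spread 1.76) was nearest to the fasciclin-like arabinogalactan protein genes FLA13 (0.542) and FLA2 (0.619) and the galactan synthase GALS1 (0.594). EXLA3 (own spread 1.6) had no gene closer than ERD6 (0.861), a sugar transporter gene, followed by TPS8 (0.931) and PATL2 (0.949). EXLB1 (own spread 0.656) was nearest to the transcription factor gene NAC010 (0.337), the proline transporter gene PROT1 (0.383) and the senescence nuclease gene BFN1 (0.383). No member of the 6 was among the nearest 3 of another. The tandem pair stood at 1.35 from each other, nearer than EXLA1 and EXLA2 (1.63) or EXLA2 and EXLA3 (1.53), while EXPB1 and EXPB3 stood at 1.24. EXPB1 and EXLA2, of different subfamilies, stood at 1.29. Among genes with a symbol EXLA3 ranked 50 from EXLA1, and EXLA1 ranked 267 from EXLA3. EXPB3 ranked 93 from EXPB1, and EXPB1 ranked 1908 from EXPB3.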

How the data were processed

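RNA sequencing reads of 14 rosette leaf libraries in 5 groups were deposited by the authors as raw counts per gene. The submitters' processing notes name STAR 2.7.7a as the tool and TAIR10 as the build. The gene models that were counted are not given in the sources used here. Replicates are biological according to the design text. Each file gives the deposited counts without regard to strand and for each strand, and the strand with most reads was used. Lines of reads in no gene (median 5.04% of reads) were left out. Of 34218 genes, 32548 were in the TAIR10.1 RefSeq annotation, which gave coordinates, exon lengths and sequence.

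An edgeR model (version 4.0.16, in R 4.3.3) held the counts of every library (TMM, filterByExpr by group, 1 coefficient per group, quasi-likelihood F test). Its p-values in 7 comparisons were adjusted by the Benjamini-Hochberg method for 20077 genes, at a threshold of 0.05. The SE was taken as |log2 fold change| divided by the root of the F statistic. The spread was estimated from the 5 groups together, that of 2 libraries included. A prior count of 2 was used for profiles. The fit was tested on simulated data. Pairs of libraries within a group differed by more than sampling noise (chi-square per degree of freedom 20.1 to 157).

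Alternatives were RLE size factors, total counts alone, no filter beyond 1 count, counts that ignore strand, the 2 groups alone, DESeq2 1.42.0, replicate number as a block, each library left out in turn, and coding length. Without 1 of the 168 h libraries, the lone other one is taken to vary as libraries elsewhere do. The named genes are the 6 genes, up to 3 other expansins of smallest p per comparison and the 3 nearest profiles of each gene. The 6 genes, the lists and the tests were chosen with earlier results of these data known, and the alternatives for the other expansins were chosen after seeing the data.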

Additional observations from a re-analysis of the deposited data

Results flagged for a closer look

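With no empty needle at 3 h or 168 h, GA3 and time cannot be told apart in the comparisons between times. EXPB1 differed between 2 times after GA3. Its fitted log2 difference from untreated leaves was larger at 24 h than at 3 h by 3.19 ± 0.79 (adjusted p = 0.0265, edgeR), with 3 of 3 libraries higher, and the call was lost without the second 3 h library (adjusted p = 0.0861, edgeR) or GA3 24 h replicate 2 (0.0753) or replicate 3 (0.0759). Between 168 h and 24 h EXPB1 differed by -6.43 ± 1.20 (adjusted p = 0.0043, edgeR) and EXLA2 by -5.24 ± 1.03 (adjusted p = 0.00517, edgeR), each with 2 of 2 libraries lower. Without the second 168 h library the adjusted p was 0.0597 for EXPB1 and 0.0684 for EXLA2 (edgeR).

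Counts on the strand opposite to EXPB3, which the main fit left out, summed to 20 in the mock libraries against 8 in the untreated ones. The counts were 3, 5 and 12 with mock and 3, 3 and 2 in untreated leaves, so the lowest mock library tied with 2 untreated ones in counts and lay above them only after scaling for library size. Over all libraries the opposite strand held 1.03% of the counts at EXPB3, beside 4.86% to 5.51% over all genes in single libraries.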

How the results depend on the processing

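Over the 534 alternative values of the 6 genes in the 7 comparisons, 476 kept their direction and their side of the threshold, 25 lost and 9 gained a call, and 24 changed sign, all 24 among differences that had not been called. Counts of the 6 genes called changed as follows. At 24 h of GA3 against untreated leaves the count of 1 became 0 with total counts alone, with the replicate block and with the 2 groups alone, and was 0 to 0 with 1 library left out. At 168 h against untreated leaves the count of 2 became 1 with total counts alone, the replicate block or the 2 groups alone, and 0 to 2 with 1 library left out. Against 24 h it became 1 with the 2 groups alone, and 0 to 4 with 1 library left out. From 3 h to 24 h of GA3 the count of 1 became 3 with DESeq2, and 0 to 2 with 1 library left out. At 3 h against untreated leaves it went from 0 to 1 with the 2 groups alone. The cause was not tested.

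The labels do not say that replicate numbers mark a shared batch. Correlations of same-numbered deviations lay from -0.26 to 0.31, and with 2 or 3 libraries a group they cannot decide it. With the replicate block EXPB1 at 24 h of GA3 against untreated leaves was 3.16 (adjusted p = 0.0655, edgeR) and at 168 h -3.34 (0.0755). The block also ended the calls of EXPA10 at 3 h (2.15, 0.0573) and EXPA3 at 24 h of GA3 (2.14, 0.064) against untreated leaves, which left 1 and 0 alpha-expansins called. The sign changes under the block were EXLA1 with mock (-0.23) and at 24 h of GA3 (-0.86), EXLA3 at 24 h of GA3 (-0.04) and EXPB3 at 3 h (-0.15), all against untreated leaves.

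Other sign changes came with total counts alone (EXLB1, mock against untreated leaves, 0.01) or with 1 library left out. For GA3 against mock the values then spanned -0.08 to 0.29 for EXPB3, -0.83 to 0.25 for EXLA1, -0.67 to 0.78 for EXLA2 and -1.36 to 0.43 for EXLA3. Against untreated leaves they spanned -0.17 to 0.10 for EXLB1 with mock, -1.07 to 0.42 for EXPB1, -0.50 to 0.48 for EXPB3 and -0.59 to 0.19 for EXLA2 at 3 h, -0.28 to 1.51 for EXLA3 at 24 h of GA3, and -3.67 to 0.39 for EXLA3 and -0.78 to 1.59 for EXLB1 at 168 h. EXLB1 at 168 h against 24 h spanned -1.17 to 1.19. The cause of these changes was not tested.

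Over all genes DESeq2 called 47 for GA3 against mock (edgeR 0), 1112 for mock (156) and 2440 for 24 h of GA3 (989) against untreated leaves, and 3672 for 24 h against 3 h (2290). The 2 groups alone gave 0, 1059 and 2096 for 24 h against untreated leaves, 24 h against 3 h and 168 h against 24 h (4856). With 1 library left out the counts spanned 4 to 233 for mock, 1475 to 3025 for 3 h (2848), 6 to 1384 for 24 h and 2511 to 6342 for 168 h (6272) against untreated leaves, 749 to 2128 for 24 h against 3 h and 898 to 5325 for 168 h against 24 h. Total counts alone moved the median of all genes to 0.115 at 3 h and 0.208 at 168 h against untreated leaves, -0.187 for 24 h against 3 h and 0.283 for 168 h against 24 h, and the share of calls that were higher from 78.2% to 90.1% with mock, 60.3% to 72.1% at 3 h, 48.4% to 63% at 168 h, 49.8% to 29.2% for 24 h against 3 h and 42.6% to 64.8% for 168 h against 24 h. Per kilobase of coding sequence the mean level of EXPB3 was 30.4 CPM per kb. With 3 libraries a group, and 2 at 168 h, the intervals of EXLA1 and EXLA3 hold differences of several fold.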
